A study of Homo sapiens with 12 samples.

Results

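The 10 genes described here encode chaperones and other products of the unfolded protein response, and they were taken by symbol from the 26475 genes of the deposited expression table. They are HSPA5, HSP90B1, CALR, PDIA4, SDF2L1, DNAJC3, DNAJB9, HERPUD1, SEL1L and XBP1. The 10 rows passed the filter on low counts in every comparison, so that no gene is missing from a count given here. Their response to the ATAD2 inhibitor BAY-850 was measured by RNA sequencing in 2 ovarian cancer cell lines, and was set beside the genes of the ATF4 branch of the same stress response.

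The endoplasmic reticulum (ER) folds proteins that are to be secreted or placed in membranes. When unfolded proteins accumulate there, 3 sensors in its membrane, IRE1 (encoded by ERN1), ATF6 and PERK (EIF2AK3), start the unfolded protein response. IRE1 splices the XBP1 mRNA into the form that encodes an active transcription factor, ATF6 is cut to release one, and both raise the transcription of chaperones and of genes for ER-associated degradation (ERAD). PERK phosphorylates eIF2α, which lowers general translation while favoring that of ATF4, a factor for amino acid supply and redox genes and for DDIT3 (CHOP). Kinases outside the ER can phosphorylate eIF2α too, so ATF4 targets also respond to other stresses.

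PA-1 is a cell line from an ovarian teratocarcinoma and was grown in DMEM. SK-OV-3 is a cell line from an ovarian adenocarcinoma and was grown in RPMI, so that line and medium cannot be told apart. Cells of each line received DMSO or 5 µM BAY-850, a small molecule that binds the ATAD2 bromodomain, for 48 h. The 4 groups had 3 biological replicates each, which gave 12 libraries of 2 lines with no genetic alteration named in the labels.

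Library totals ranged from 34544481 to 51840249 expected counts, and ribosomal RNA genes took 7.94% to 16.9% of them. The third SK-OV-3 library with BAY-850 stood apart, with the highest total and only 15629 genes with a count, as compared to 17425 to 18414 in the other libraries. Levels are given as CPM, counts relative to the library total after TMM scaling, which is here over the 12 libraries. The summed level of 7 embryonal markers was 2491 to 2596 CPM in PA-1 with DMSO and 2838 to 2926 CPM with BAY-850. In SK-OV-3 it was 265.7 to 296.1 CPM, nearly all of it from PODXL, since only 2 of the 7 markers reached a mean of 1 CPM and DPPA4 was at 0 in both groups. PODXL had a mean of 281 CPM in SK-OV-3 with DMSO and of 282 CPM after BAY-850, scaled over the 6 libraries of the line. A sum was also taken over 7 markers chosen for SK-OV-3, the receptor gene ERBB2 and epithelial genes. It was 4128 to 4433 CPM in SK-OV-3 with DMSO, and 924.7 to 1054 CPM in PA-1 over both groups. With BAY-850 it was 2898 to 3360 CPM in SK-OV-3, where 4 of the 7 fell. ERBB2 alone was at 2144 to 2622 CPM in SK-OV-3 with DMSO and at 1542 to 1925 CPM with BAY-850. In PA-1 nearly all of the sum came from KRT8 and KRT18. KRT18 was higher in PA-1 with DMSO, at 325 to 343 CPM, than in SK-OV-3 with DMSO, at 258 to 282 CPM. Whether the fall in SK-OV-3 has a part in the results below was not tested. In cultures measured in bulk, fewer cells of a kind and less RNA per cell cannot be told apart. Markers of blood, vessel and stromal cells summed to 58.11 to 65.65 CPM in PA-1 with DMSO and 65.41 to 67.9 CPM with BAY-850, and to 32.76 to 33.38 and 41.58 to 43.06 CPM in SK-OV-3. Most of the sum in PA-1 came from vessel and stromal genes. With DMSO, PECAM1 was at 22.9 to 23.9, PDGFRB at 21.2 to 25.7 and CDH5 at 8.42 to 9.56 CPM there. The leukocyte gene PTPRC was at 0 in PA-1 and had at most 4 counts in SK-OV-3. The T-cell gene CD3E was at 0 in SK-OV-3 and had at most 10 counts in PA-1. The rise of the sum in SK-OV-3 was mostly that of CD68, a lysosomal gene used as a macrophage marker. CD68 went from 29.1 ± 0.28 to 40.1 ± 0.63 CPM (SD, n = 3, scaled over the line's libraries). Its log2 fold change was 0.46 (SE 0.07, edgeR adjusted p = 0.000831), and its part in the results was not tested.

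Promoters of ER stress genes are known for short elements through which the response acts, and they are shown here because the genes that share an element did not move in the same direction. The ER stress response element (ERSE) binds ATF6 with the factor NF-Y, and was searched on both strands as CCAAT and CCACG with any 9 bases between them. The shorter ERSE-II was searched as ATTGG and CCACG with any 1 base between them. The upstream 250 bases of the start site in RefSeq (GRCh38.p14) are given for 3 genes, 5′ to 3′ on the gene's strand, with matches in capitals. HSPA5 is the classical target, XBP1 has the same element, and HERPUD1 has an ERSE-II and, upstream of it, a match to the element of C/EBP and ATF factors to which ATF4 binds (CARE, searched as TGATGNAA).
HSPA5, chr9:125241344-125241593, minus strand: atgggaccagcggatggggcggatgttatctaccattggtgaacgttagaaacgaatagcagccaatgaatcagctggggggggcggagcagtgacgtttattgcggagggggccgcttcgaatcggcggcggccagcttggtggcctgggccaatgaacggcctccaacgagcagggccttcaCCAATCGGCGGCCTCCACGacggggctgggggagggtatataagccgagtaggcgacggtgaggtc
XBP1, chr22:28800570-28800819, minus strand: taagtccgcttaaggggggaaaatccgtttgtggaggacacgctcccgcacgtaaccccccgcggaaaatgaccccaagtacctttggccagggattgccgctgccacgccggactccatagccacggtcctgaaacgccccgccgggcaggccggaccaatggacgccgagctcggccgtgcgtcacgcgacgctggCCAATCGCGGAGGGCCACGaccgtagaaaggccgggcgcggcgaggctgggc
HERPUD1, chr16:56931892-56932141, plus strand: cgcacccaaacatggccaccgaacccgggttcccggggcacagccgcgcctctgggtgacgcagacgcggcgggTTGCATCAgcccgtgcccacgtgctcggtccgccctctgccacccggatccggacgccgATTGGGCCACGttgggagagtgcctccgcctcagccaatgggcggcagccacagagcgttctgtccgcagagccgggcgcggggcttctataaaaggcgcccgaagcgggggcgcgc
Shorter windows around the matches of 3 more genes follow. HSP90B1, which has 2 ERSE matches of which the upstream one is shown, and CALR carry an ERSE, and SDF2L1 an ERSE-II. Those of CALR and SDF2L1 read on the opposite strand.
HSP90B1, chr12:103930211-103930239, plus strand: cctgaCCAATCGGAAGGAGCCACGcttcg
CALR, chr19:12938379-12938407, plus strand: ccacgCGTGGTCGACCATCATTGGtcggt
SDF2L1, chr22:21642109-21642129, plus strand: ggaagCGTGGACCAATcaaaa
For the ATF4 branch, the CARE matches of the asparagine synthetase gene ASNS and of CHAC1, a glutathione-degrading enzyme, are shown for comparison with that of HERPUD1, and CHAC1 and HERPUD1 hold the same 8 letters. ASNS was chosen for this match after its values were seen.
ASNS, chr7:97872464-97872481, minus strand: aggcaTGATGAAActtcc
CHAC1, chr15:40953257-40953274, plus strand: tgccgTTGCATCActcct

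RefSeq promoter windows of 300 bases, 250 before and 50 after the start, were matched by symbol for 10 of 10 genes. A gene can have more than 1 window, so shares are given per gene. The ERSE was found in 27 of 35116 promoter windows, which belong to 25 of 27305 genes (0.0916%). Among the 10 genes it was found in 4, HSPA5, HSP90B1, CALR and XBP1. The ERSE-II was found in 19 genes (0.0696%), HERPUD1 and SDF2L1 among them. A CARE match was far more common, at 1217 genes (4.46%). It was found in HERPUD1 alone among the 10 genes and in 7 of 25 ATF4 branch genes with a window (28%). The XBP1 element TGACGTGG was found in 253 genes (0.927%) and in none of the 10. For PDIA4, DNAJC3, DNAJB9 and SEL1L, none of these letters were found in the windows. A match describes the letters of the window and does not show that a factor bound there.

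Levels of the genes spanned a wide range, and are compared between genes per kilobase (kb) of the longest protein-coding transcript in GENCODE. In PA-1 cells with DMSO, the ER HSP90 chaperone HSP90B1 (GRP94) was highest at 217 ± 8.38 CPM per kb (SD, n = 3). HSPA5 (BiP), the ER HSP70 chaperone that also holds the 3 sensors inactive, followed at 163 ± 7.63 and the lectin chaperone CALR at 138 ± 8.92 CPM per kb. XBP1 stood at 78.8 ± 1.81, the disulfide isomerase PDIA4 at 42.8 ± 1.64 and the ERAD scaffold gene HERPUD1 at 27.3 ± 0.66 CPM per kb. The 4 lowest were the HSPA5 co-chaperones DNAJB9 (6.97 ± 0.53) and DNAJC3 (6.67 ± 0.36), SDF2L1 (5.99 ± 0.30 CPM per kb), and SEL1L, the adaptor of the ERAD ubiquitin ligase HRD1, at 4.98 ± 0.07 CPM per kb. DNAJB9 and DNAJC3 differed by less than their SD.

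**Figure D1:**
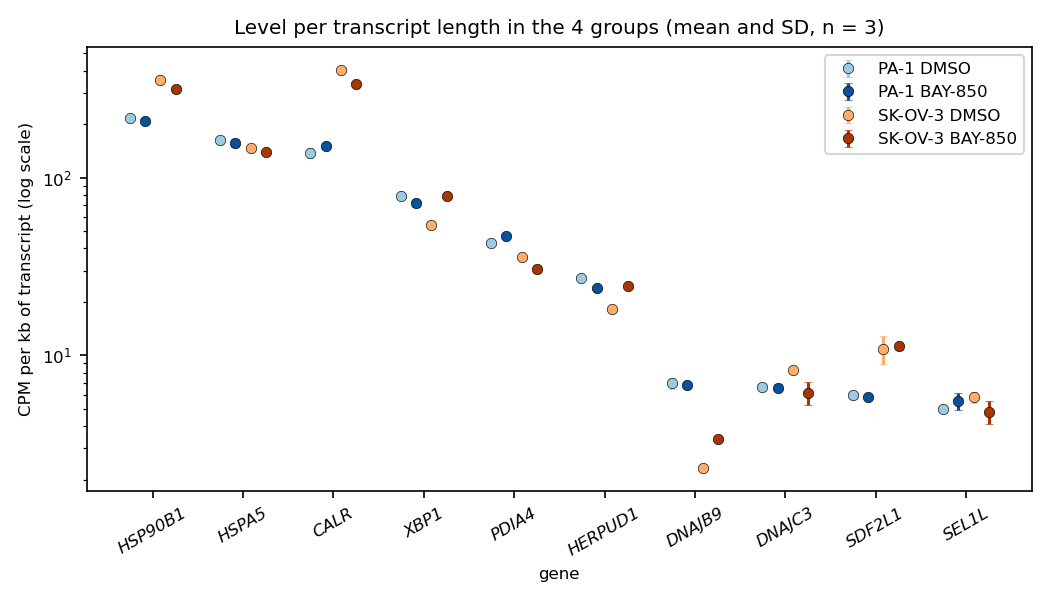
Level of the 10 genes in CPM per kb of transcript (log scale), as the mean and SD of 3 libraries in each of the 4 groups. HSP90B1, HSPA5 and CALR lie above 130 CPM per kb in every group, and DNAJB9 falls from 6.97 CPM per kb in PA-1 with DMSO to 2.33 in SK-OV-3 with DMSO.

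In SK-OV-3, BAY-850 moved the 10 genes in both directions. XBP1, HERPUD1 and DNAJB9 rose by 1.37 to 1.46 times, CALR, DNAJC3, PDIA4 and HSP90B1 fell to between 0.75 and 0.89 of the DMSO level, and HSPA5, SDF2L1 and SEL1L did not pass the test. Thus 7 of 10 genes passed an adjusted p of 0.05 in edgeR's quasi-likelihood test, 3 higher and 4 lower, as compared to 20.4% of all 15348 genes tested (10.8% higher and 9.56% lower). The median log2 fold change of the 10 was -0.11, beside -0.01 for all genes. Levels within a line are given below as CPM scaled by TMM over its 6 libraries. Without SK-OV-3 DMSO replicate 2 only 3 genes passed, and without SK-OV-3 BAY-850 replicate 2 only 4, but without the BAY-850 library that stood apart 7 passed.

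XBP1 (chr22:28794555-28800597, minus strand, GRCh38) encodes the transcription factor that IRE1 activates. Its level was 108, 101 and 98.8 CPM in the SK-OV-3 libraries with DMSO and 146, 150.1 and 153 CPM in those with BAY-850. Each treated library lay well above each control. The log2 fold change was 0.55 (SE 0.06, adjusted p = 4.75e-05), and XBP1 passed the test under each of the 18 alternative settings of this comparison. Counts per gene do not separate the spliced from the unspliced mRNA, so the activity of IRE1 was not measured by this value.

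HERPUD1 (chr16:56932048-56944863, plus strand) helps bring ERAD substrates to the HRD1 complex, and is the gene whose window above holds both an ERSE-II and a CARE match. It was measured at 54.2, 56.0 and 53.3 CPM with DMSO and at 73.4, 73.2 and 77.9 CPM with BAY-850. The groups did not overlap, and the log2 fold change of 0.46 (SE 0.06, adjusted p = 0.000334) passed under each of the 18 alternatives. DNAJB9 (ERdj4, chr7:108569568-108574850, plus strand) is a co-chaperone that brings HSPA5 to IRE1 and to ERAD substrates. Its level was low, at 6.56, 6.19 and 6.60 CPM with DMSO and 8.99, 9.68 and 9.65 CPM with BAY-850, on a mean of 245 and 418 counts. All 3 treated libraries were higher, with a log2 fold change of 0.55 (SE 0.14, adjusted p = 0.0149). This call was lost without SK-OV-3 DMSO replicate 2 (adjusted p = 0.0691) and without SK-OV-3 BAY-850 replicate 2 (0.0543).

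The 4 genes that fell in SK-OV-3 include abundant luminal chaperones. CALR (calreticulin, chr19:12938578-12944489, plus strand), which folds glycoproteins and binds calcium, was at 817, 768 and 751 CPM with DMSO and at 646, 658 and 672 CPM with BAY-850. The groups stood clear of each other, and the log2 fold change was -0.24 (SE 0.05, adjusted p = 0.00354), a call kept under the 18 alternatives. DNAJC3 (p58IPK, chr13:95677139-95794989, plus strand), a co-chaperone known as an inhibitor of PERK and other eIF2α kinases, was at 45.9, 47.6 and 47.4 CPM with DMSO and 37.7, 38.5 and 30.1 CPM with BAY-850. Its lowest value came from the library that stood apart. The log2 fold change of DNAJC3 was -0.41 (SE 0.09, adjusted p = 0.0102), and -0.30 (adjusted p = 0.0061) without that library, and the call was lost without SK-OV-3 DMSO replicate 2 (0.0522).

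The changes of PDIA4 and HSP90B1 were small and less firm. PDIA4 (ERp72, chr7:149003062-149028641, minus strand), which forms and rearranges disulfide bonds, was at 105, 109 and 103 CPM with DMSO and 89.7, 85.9 and 98.1 CPM with BAY-850. HSP90B1 (chr12:103930107-103953645, plus strand) was at 1002, 1048 and 1052 CPM with DMSO and 867, 913 and 985 CPM with BAY-850. In both genes every treated library was below every control, the nearest pair being 98.1 against 103 CPM for PDIA4 and 985 against 1002 CPM for HSP90B1. The log2 fold changes were -0.21 (SE 0.06, adjusted p = 0.0345) and -0.17 (SE 0.05, adjusted p = 0.0418), with calls kept in 10 and 12 of 18 alternatives. Of the libraries, leaving out any SK-OV-3 library other than the BAY-850 one that stood apart ended the call of PDIA4 (adjusted p 0.06 to 0.151), and DMSO replicate 2 or 3 or BAY-850 replicate 1 or 2 that of HSP90B1 (0.127 to 0.164). Without the library that stood apart, both changes were larger, at -0.27 for PDIA4 and -0.22 for HSP90B1.

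HSPA5 (chr9:125234853-125241330, minus strand), the most used marker of ER stress, did not pass. It was measured at 565, 591 and 593 CPM in SK-OV-3 with DMSO and at 557, 559 and 574 CPM with BAY-850, on means of 22138 and 24935 counts. The groups overlapped, and the log2 fold change of -0.05 had a 95% interval from -0.14 to 0.05. A rise of HSPA5 of the size seen for XBP1 lies outside this interval. SDF2L1 (chr22:21642261-21644298, plus strand), a partner of ER co-chaperones, was at 11.1, 10.1 and 7.68 CPM with DMSO and 9.55, 9.70 and 10.7 CPM with BAY-850. Its groups overlapped and its interval was wide, from -0.28 to 0.40. SEL1L (chr14:81471549-81533861, minus strand) was at 44.4, 45.9 and 50.5 CPM with DMSO and 40.4, 43.3 and 33.3 CPM with BAY-850. Its groups did not overlap, with the lowest value again in the library that stood apart, and the log2 fold change of -0.27 (SE 0.10) did not pass (adjusted p = 0.082, and 0.148 without that library).

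**Figure D2:**
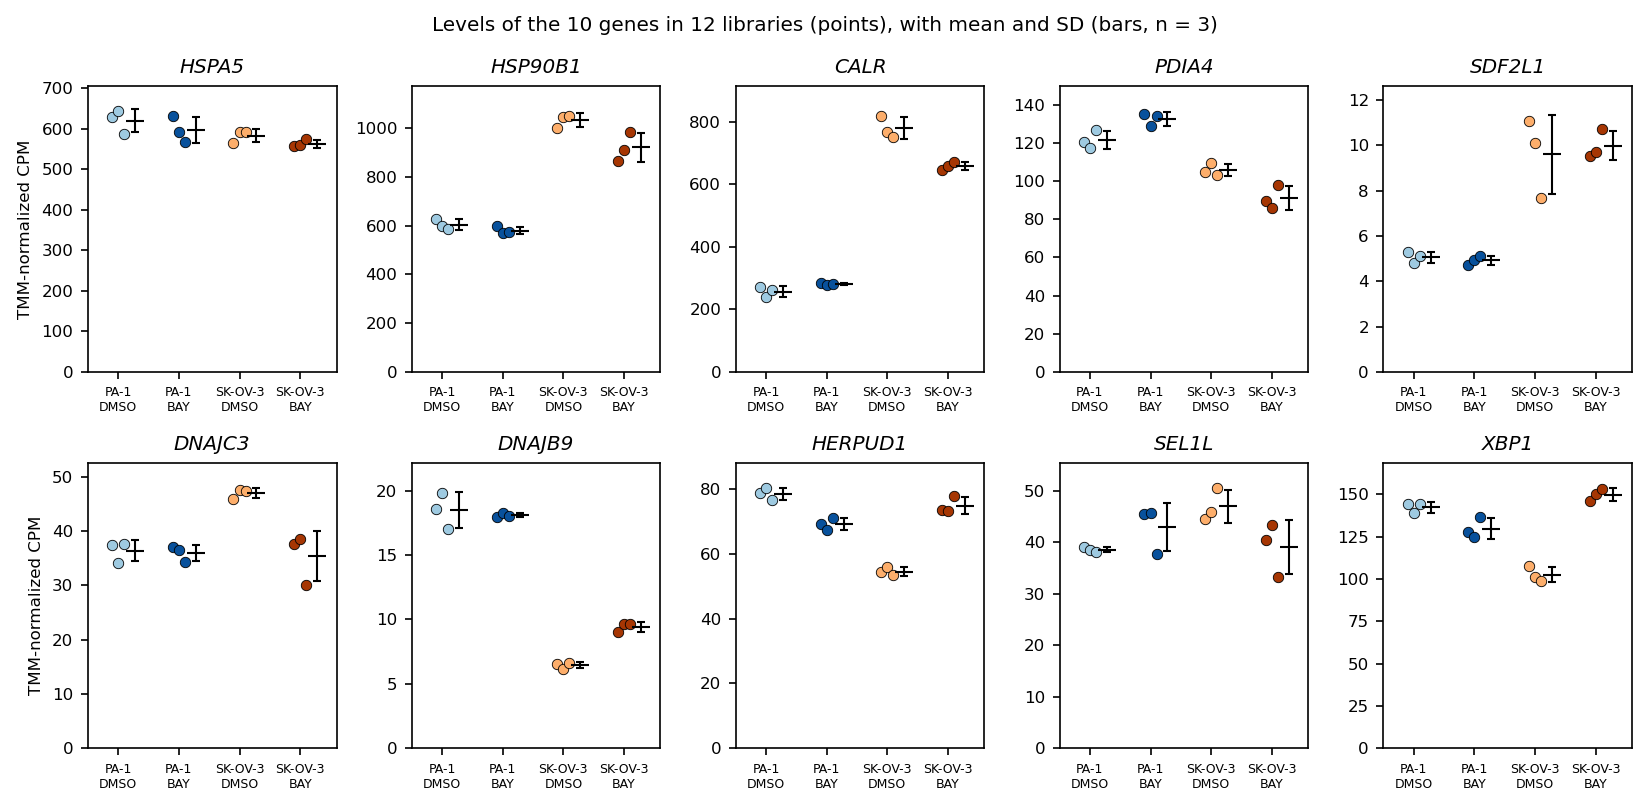
TMM-scaled CPM of each of the 10 genes in the 12 libraries, with a point per library and the mean and SD (n = 3) beside each group. Scaling was done within each line, and every vertical axis starts at 0. XBP1, HERPUD1 and DNAJB9 are higher in all 3 SK-OV-3 libraries with BAY-850 than in any with DMSO, while HSPA5 overlaps between the groups in both lines.

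The libraries of the SK-OV-3 groups did not overlap for 8 of the 10 genes, 3 higher and 5 lower, beside 38.8% of all genes (19.4% higher and 19.5% lower). The summed level of the 10 genes was 2758 to 2784 CPM with DMSO and 2476 to 2644 CPM with BAY-850, and HSPA5, HSP90B1 and CALR made up 86.43% to 86.69% of it with DMSO and 83.61% to 84.37% with BAY-850. The sum is thus mostly that of 3 chaperones, and it was lower in each treated library.

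In PA-1, none of the 10 genes passed (0 of 10 by edgeR's quasi-likelihood test, beside 7.13% of 15212 genes, 4.65% higher and 2.48% lower). At an unadjusted p under 0.05 there were 4, with CALR and PDIA4 higher and HERPUD1 and XBP1 lower, DESeq2 and edgeR's likelihood ratio test each called 1 gene (HERPUD1), and limma-voom 0. The log2 fold changes ranged from -0.18 (HERPUD1) to 0.16 (SEL1L), with a median of -0.03. The libraries of the groups did not overlap for 2 genes in each direction, as compared to 27.5% of all genes (14.4% higher and 13.1% lower).

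HERPUD1 came nearest to a call in PA-1, in the direction opposite to SK-OV-3. It was at 78.6, 80.1 and 76.5 CPM with DMSO and 69.2, 67.2 and 70.9 CPM with BAY-850 (log2 fold change -0.18, SE 0.06, adjusted p = 0.0676). XBP1 was at 144, 139 and 144 CPM with DMSO and 128, 125 and 136 CPM with BAY-850 (adjusted p = 0.162). Both genes were lower in each treated library than in each control. CALR was at 270, 238 and 262 CPM with DMSO and 284, 277 and 281 CPM with BAY-850 (adjusted p = 0.18), and PDIA4 at 120.35, 117 and 127 and at 135, 129 and 134 CPM (0.182). For these the treated libraries were the higher ones.

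The other 6 genes overlapped between the groups in PA-1. HSPA5 was at 629.5, 644 and 589 CPM with DMSO and 633, 592 and 569 CPM with BAY-850, with an interval of the log2 fold change from -0.17 to 0.07. HSP90B1 was at 629, 601 and 585 and at 599, 569 and 573 CPM. SEL1L was at 39.1, 38.4 and 38.2 CPM with DMSO and at 45.5, 45.6 and 37.6 CPM with BAY-850. The third treated library set its overlap, and without it SEL1L passed at a log2 fold change of 0.24 (adjusted p = 0.0373). Groups of the co-chaperone genes overlapped as well, with DNAJB9 at 18.5, 19.8 and 17.05 and at 17.98, 18.3 and 18.05 CPM. DNAJC3 was at 37.4, 34.2 and 37.6 and at 37.0, 36.6 and 34.2 CPM, and SDF2L1 at 5.27, 4.79 and 5.12 and at 4.71, 4.96 and 5.11 CPM.

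**Figure D3:**
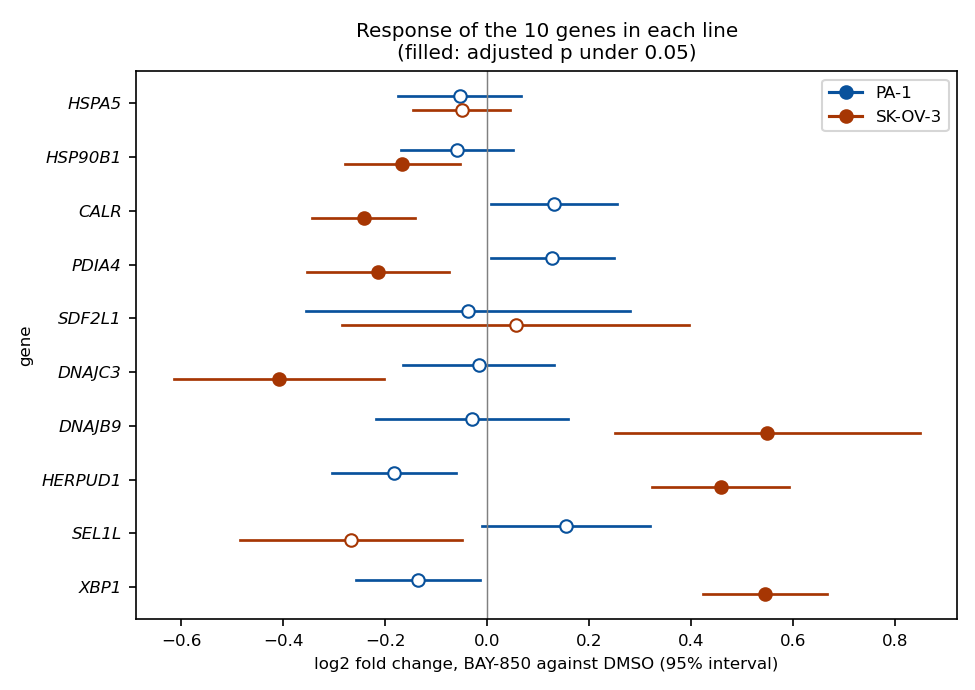
Log2 fold change of BAY-850 against DMSO for each of the 10 genes in PA-1 and SK-OV-3, with 95% intervals from the edgeR fit and filled points for an adjusted p under 0.05. XBP1 (0.55), HERPUD1 (0.46) and DNAJB9 (0.55) lie above 0 in SK-OV-3, CALR, DNAJC3, PDIA4 and HSP90B1 lie below it, and no PA-1 point is filled.

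Whether the response differed between the lines was tested with the interaction of line and treatment in a fit of all 12 libraries, in which 6 of the 10 genes passed, 3 with the higher and 3 with the lower response in SK-OV-3, beside 14.5% of 16830 genes (6.7% higher and 7.77% lower). The response of XBP1 was higher in SK-OV-3 by 0.67 on the log2 scale (SE 0.07, adjusted p = 2.1e-05), that of HERPUD1 by 0.63 (SE 0.07, 3.79e-05) and that of DNAJB9 by 0.57 (SE 0.15, 0.0182). It was lower for CALR at -0.38 (SE 0.07, adjusted p = 0.00217), for PDIA4 at -0.35 (SE 0.08, 0.00546) and for DNAJC3 at -0.40 (SE 0.13, 0.0496). The call of DNAJC3 sat at the threshold and was kept in only 11 of 23 alternatives. Without the SK-OV-3 library that stood apart it was -0.28 (adjusted p = 0.0533), and leaving out any 1 of the 6 PA-1 libraries or of the 3 SK-OV-3 libraries with DMSO ended it as well (0.0513 to 0.124). That of DNAJB9 was lost without PA-1 DMSO replicate 2 (0.0546). SEL1L, at -0.43 (SE 0.15), missed the threshold (adjusted p = 0.0597) but passed in 10 of 23 alternatives. No difference passed for HSP90B1 (-0.12, interval -0.27 to 0.03), SDF2L1 (0.08, interval -0.39 to 0.55) or HSPA5 (-0.01, interval -0.16 to 0.14).

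Under DMSO alone, 9 of the 10 genes differed between SK-OV-3 and PA-1, 4 higher and 5 lower in SK-OV-3, a share not far above the 76.4% of all genes that differed (38.3% higher and 38.1% lower). CALR was 2.91 times higher in SK-OV-3 (log2 1.54, SE 0.05, adjusted p = 2.09e-13), SDF2L1 1.82 times, HSP90B1 1.64 times and DNAJC3 1.24 times. DNAJB9 was lower, at 0.33 of the PA-1 level (log2 -1.58, SE 0.11, adjusted p = 1.53e-09), as were HERPUD1 (0.67), XBP1 (0.69), PDIA4 (0.84) and HSPA5 (0.90). SEL1L did not pass (log2 0.22, adjusted p = 0.0615). This comparison shares its SK-OV-3 control libraries with the treatment comparison, so the levels are given side by side. On the scale shared by the 12 libraries, XBP1 was at 78.8 CPM per kb in PA-1 with DMSO, 54.4 in SK-OV-3 with DMSO and 78.7 in SK-OV-3 with BAY-850, and HERPUD1 at 27.3, 18.1 and 24.7. DNAJB9, at 6.97, 2.33 and 3.38 CPM per kb, was below the PA-1 level in both SK-OV-3 groups.

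Ratios to HSPA5 within a library do not depend on scaling between libraries. This pairing was chosen after the values were seen and is a description, with no test. XBP1 had 166.7 to 190.5 counts per 1000 counts of HSPA5 in SK-OV-3 with DMSO and 261.9 to 268.4 with BAY-850, as compared to 215.4 to 244.9 and 202.0 to 239.7 in PA-1. For HERPUD1 the ratio was 89.85 to 96.02 and 130.9 to 135.6 in SK-OV-3, and 124.5 to 129.9 and 109.3 to 124.7 in PA-1. DNAJB9 had 10.46 to 11.61 and 16.15 to 17.3 counts per 1000 in SK-OV-3, and 28.96 to 30.8 and 28.39 to 31.72 in PA-1. The PA-1 groups overlapped for XBP1, HERPUD1 and DNAJB9. CALR had 1266 to 1447 and 1161 to 1177 counts per 1000 in SK-OV-3, and 370.0 to 444.2 and 448.7 to 494.4 in PA-1. Its ratio was thus lower with BAY-850 in SK-OV-3 and higher in PA-1, without overlap in either line. PDIA4 had 174.2 to 185.8 and 153.6 to 170.8 in SK-OV-3, and 182.3 to 215.1 and 213.9 to 235.4 in PA-1. HSP90B1 had 1772 to 1775 and 1558 to 1715 in SK-OV-3, and 933.3 to 999.2 and 945.9 to 1008 in PA-1. In SK-OV-3 the ratios to HSPA5 separated the groups upward for XBP1, HERPUD1 and DNAJB9, and downward for CALR, PDIA4 and HSP90B1.

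**Figure D4:**
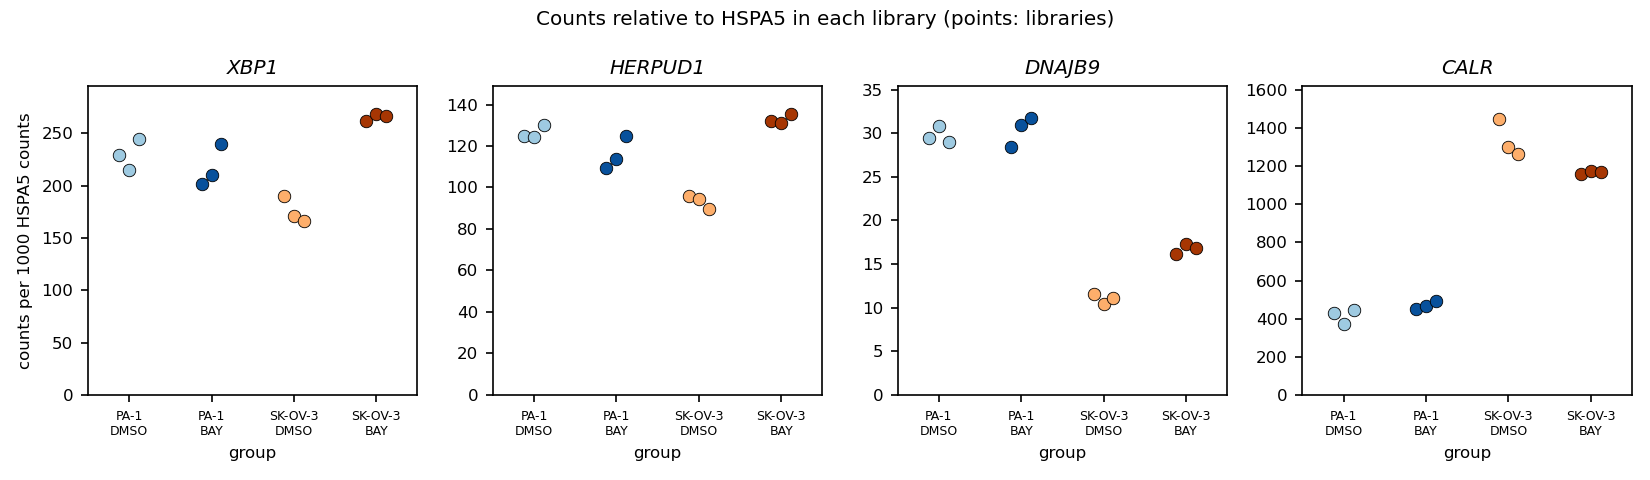
Expected counts of XBP1, HERPUD1, DNAJB9 and CALR per 1000 counts of HSPA5 in each library of the 4 groups, with axes from 0. In SK-OV-3, XBP1 goes from 166.7 to 190.5 with DMSO to 261.9 to 268.4 with BAY-850, while in PA-1 its groups overlap.

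Upstream of these genes, the list of 10 sensors and regulators of the response had 0 genes past the test in PA-1, beside 7.13% of all genes. In SK-OV-3 it had 1, EIF2AK3, beside 20.4% of all genes. The gene for PERK was at 25.9, 30.2 and 30.04 CPM in SK-OV-3 with DMSO and 41.0, 47.2 and 51.4 CPM with BAY-850 (log2 fold change 0.70, SE 0.10, adjusted p = 0.000518), without overlap. In PA-1 it was at 45.3 ± 0.75 and 41.2 ± 3.74 CPM (SD, n = 3, adjusted p = 0.28), and its response differed between the lines by 0.82 (SE 0.13, adjusted p = 0.000565). ERN1, which encodes IRE1, was low, at 1.58, 1.06 and 1.83 CPM in PA-1 with DMSO and 3.15, 3.17 and 2.17 CPM with BAY-850. Its log2 fold change of 0.93 (SE 0.28) did not pass (adjusted p = 0.0547), though the groups did not overlap and 6 of 17 alternatives called it. In SK-OV-3 the log2 fold change of ERN1 was 0.37 (adjusted p = 0.383), called in 0 of 18 alternatives. ATF6 was at 60.9 ± 1.15 CPM in SK-OV-3 with DMSO and 63.5 ± 8.59 CPM with BAY-850 (log2 fold change 0.06, adjusted p = 0.673), and at 49.2 ± 2.88 and 48.3 ± 1.79 CPM in PA-1.

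Among 25 further genes of ER folding and disulfide formation, 10 passed in SK-OV-3, 3 higher and 7 lower, and 3 passed in PA-1, all higher. Of all genes, 10.8% were called higher and 9.56% lower in SK-OV-3, and 4.65% higher and 2.48% lower in PA-1. The median log2 fold change of all 25 was -0.09 and -0.01. ERO1A, the oxidase that recharges disulfide isomerases and a known hypoxia target, rose in both lines, from 108 ± 6.15 to 163 ± 7.80 CPM in PA-1 (log2 fold change 0.59, adjusted p = 2.42e-05) and from 124 ± 3.99 to 151 ± 5.20 CPM in SK-OV-3 (0.28, 0.00377). The disulfide isomerase gene P4HB (0.24, adjusted p = 0.00959) and the membrane lectin chaperone gene CANX (0.20, 0.0426) rose in PA-1. The call of ERO1A in PA-1 was kept in each of 18 alternatives, that of P4HB in 14 and that of CANX in 10. P4HB did not pass with the GC trend removed (adjusted p = 0.052), with library size only (0.0815) or without PA-1 DMSO replicate 2 (0.0821), and CANX did not pass with library size only (0.221) or without any single PA-1 library other than BAY-850 replicate 3 (0.0851 to 0.164). Across 14790 genes, the log2 fold change in PA-1 went with GC content (Spearman rho 0.361), and across 14890 genes in SK-OV-3 less so (0.098), as a description of genes that share libraries. In SK-OV-3 the log2 fold changes of P4HB and CANX were 0.03 and -0.07, neither past the test. The genes that fell most in SK-OV-3 were UGGT1, the glucosyltransferase that tags misfolded glycoproteins for CALR and CANX (-0.47, adjusted p = 0.000593), the isomerase gene TXNDC5 (-0.43, 0.00335) and the ER reductase gene DNAJC10 (-0.35, 0.00758). ERO1B (0.40, adjusted p = 0.0461) and the co-chaperone gene DNAJC1 (0.35, 0.00797) rose, the call of ERO1B in only 6 of 18 alternatives and in none that left out a single SK-OV-3 library (0.0591 to 0.172).

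Of 20 further ERAD genes, 2 passed the test in SK-OV-3 and 0 of 19 tested passed in PA-1. EDEM2, which trims the glycans of misfolded proteins, rose in SK-OV-3 (log2 fold change 0.42, adjusted p = 0.0163), and VCP, the ATPase that extracts substrates from the ER membrane, fell from 663 ± 11.4 to 558 ± 9.62 CPM (-0.25, 0.00166). VCP kept its call in each of 18 alternatives, while that of EDEM2 was lost without SK-OV-3 DMSO replicate 2 (adjusted p = 0.0676) or 3 (0.0688). Of 19 genes for translocation into the ER and signal peptide removal, 7 passed in SK-OV-3, all lower, and 1 in PA-1, and the median of all 19 in SK-OV-3 was -0.11. SEC11C (-0.63, adjusted p = 0.0145) and SPCS3 (-0.39, 0.00104), both of the signal peptidase, and SRPRB of the receptor for the signal recognition particle (-0.32, 0.0109) fell most. SPCS3 kept its call in each of 18 alternatives. That of SEC11C was lost without SK-OV-3 DMSO replicate 1 (adjusted p = 0.0519) or 2 (0.0857). SRPRB did not pass without SK-OV-3 DMSO replicate 2 (0.0585) or BAY-850 replicate 2 (0.0553). The gene lower in PA-1 was SEC62, a translocon subunit, at -0.25 (0.0126), a call lost with the GC trend removed (-0.11, adjusted p = 0.3) and without PA-1 DMSO replicate 2 (0.067) or BAY-850 replicate 2 (0.09). The percentages of all genes called are the base against which these counts stand. They were 20.4% in SK-OV-3 (10.8% higher and 9.56% lower) and 7.13% in PA-1 (4.65% higher and 2.48% lower).

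The ATF4 branch showed a different pattern in SK-OV-3. It was chosen for contrast because it had been seen in SK-OV-3 in these same data. The values below therefore describe the branch and are not an independent result. Of 30 listed genes 29 were tested in SK-OV-3, all but FGF21, which had 0 counts in each library of that line. Of the 29, 24 rose and 2 fell, beside 20.4% of all genes called (10.8% higher and 9.56% lower). The median log2 fold change of all 29 was 0.73, beside -0.11 for the 10 ER genes and -0.01 for all genes. In PA-1, 7 of 30 passed, 5 higher and 2 lower, beside 7.13% of all genes (4.65% higher and 2.48% lower). The median of all 30 in PA-1 was 0.03. In the test of the difference between the lines, 21 of 30 passed, 20 of them with the higher response in SK-OV-3. These 30 include FGF21, which passed the filter through its 29 to 46 counts in PA-1 alone and has no measured response in SK-OV-3. Of all genes 14.5% passed that test, 6.7% higher and 7.77% lower in SK-OV-3. The branch started from a lower level in SK-OV-3. Under DMSO alone, 25 of the 30 genes were lower in SK-OV-3 than in PA-1 and 3 were higher. Of all genes, 38.1% were lower and 38.3% higher in that comparison. The median log2 difference of the 30, SK-OV-3 against PA-1 under DMSO, was -1.89.

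ATF4 itself was at 431, 413 and 399.65 CPM in SK-OV-3 with DMSO and at 559, 552 and 593 CPM with BAY-850 (log2 fold change 0.45, SE 0.05, adjusted p = 8.07e-05). Its treated libraries were all above its controls. DDIT3, which encodes CHOP, rose from 52.1, 54.8 and 53.1 CPM to 119, 121 and 126 CPM (1.19, SE 0.06, adjusted p = 1.36e-07). TRIB3, a pseudokinase induced by ATF4 and CHOP, rose from 32.0 ± 1.96 to 95.2 ± 7.46 CPM (1.58, SE 0.08, adjusted p = 1.7e-07). CHAC1 rose by 2.63 (SE 0.23, adjusted p = 1.5e-05) and the stress cytokine gene GDF15 by 2.36 (SE 0.11, 1.36e-07). INHBE, a secreted inhibin subunit and 1 of the 24 that rose, had 5, 8 and 4 counts with DMSO and 96, 93 and 133 with BAY-850. It passed the filter on low counts and the level asked of named genes through the treated libraries alone, so its fitted change is not ranked with the others.

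Not all of the branch rose in SK-OV-3. ATF5, a related factor (log2 fold change -0.38, adjusted p = 0.00446), and SLC7A11, the cystine transporter (-0.23, 0.0224), fell. The call of ATF5 was kept in each of 18 alternatives and that of SLC7A11 in 13. SLC7A11 did not pass without SK-OV-3 BAY-850 replicate 1 or 2 or DMSO replicate 2 or 3 (adjusted p 0.0655 to 0.123). PPP1R15A, whose product GADD34 reverses the phosphorylation of eIF2α, was at 481 ± 16.5 and 515 ± 6.17 CPM (0.10, adjusted p = 0.15), and the stress factor gene ATF3 at 105 ± 2.75 and 96.2 ± 5.71 CPM (-0.13, 0.161). In PA-1, DDIT3 fell from 231 ± 5.41 to 178 ± 13.7 CPM (-0.38, adjusted p = 0.00196) and PPP1R15A from 300.3 ± 0.85 to 261 ± 7.24 CPM (-0.20, 0.0289). The call of DDIT3 was kept in each of 18 alternatives and that of PPP1R15A in 12. The PA-1 values of ATF4 (-0.17, adjusted p = 0.0679), ATF3 (-0.15, 0.091) and TRIB3 (-0.04, 0.736) did not pass. Of 18 alternatives, 7 called ATF4, 1 called ATF3 and 0 called TRIB3. DDIT4, an inhibitor of mTORC1 that hypoxia also induces, rose in PA-1 (1.06, adjusted p = 1.92e-07) and in SK-OV-3 (1.61, 3.37e-08), as did the secreted glycoprotein gene STC2 (0.71 and 1.58) and the lipoprotein receptor gene VLDLR (0.39 and 0.52).

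**Figure D5:**
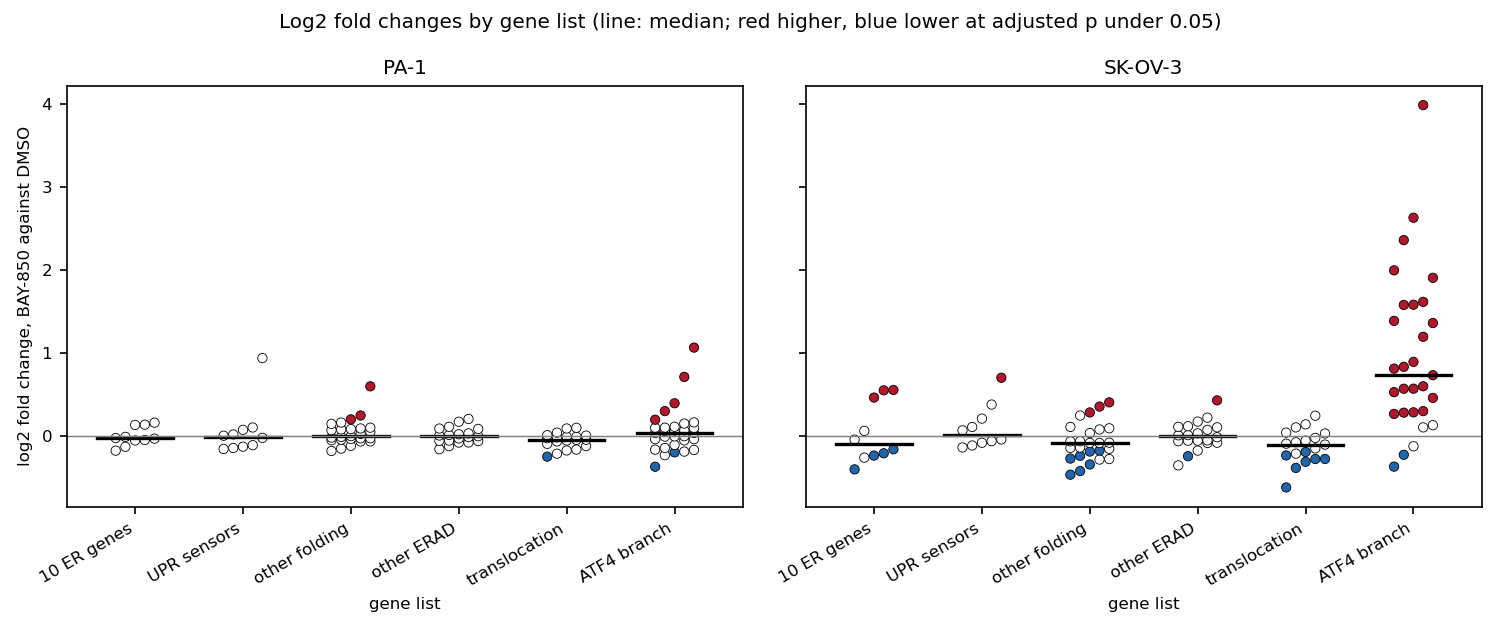
Log2 fold change of BAY-850 against DMSO for each tested gene of 6 lists in PA-1 (left) and SK-OV-3 (right), with a black line at the median and red or blue points for genes higher or lower at an adjusted p under 0.05. The ATF4 branch has a median of 0.73 in SK-OV-3 and 0.03 in PA-1, while the 10 ER genes have medians of -0.11 and -0.03.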

How the data were processed

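RNA of 12 libraries was sequenced, 3 biological replicates for each of 4 groups. The labels describe oligo-dT selection and strand-specific libraries, whereas the series' design text names depletion of ribosomal RNA. The values the authors deposited are RSEM expected counts for each gene symbol, not normalized. The submitters' processing notes name RSEM 1.2.15, Bowtie2 2.1.0 and the build hg38, without giving roles; the annotation release is not given in the sources used here. RSEM divides reads shared between genes. Of 120 values of the 10 genes, 109 were whole within 0.001, and the other 11 belong to HSP90B1, which lay at most 0.03 from a whole number and whose copy HSP90B2P had 2 to 12.03 counts. DNAJC3-AS1, antisense to DNAJC3, had 37 to 224 counts, and the strand setting of the counting is not given in the sources used here.

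Expected counts were rounded and tested with edgeR 4.0.16 (TMM, filterByExpr, quasi-likelihood F test, R 4.3.3), separately for each line and, for the interaction and the lines under DMSO, over all 12 libraries. Genes were called at a Benjamini-Hochberg adjusted p under 0.05, over all genes tested. The labels share replicate numbers between groups, and no block was used. The alternatives were DESeq2 1.42.0, the likelihood ratio test, limma-voom (limma 3.58.1), other scalings and filters, 1 fit of all libraries, the block, a GC correction (loess span 0.5) and leaving out each library. Positions and transcript lengths come from GENCODE on GRCh38, and promoters from RefSeq. The 10 genes and the lists were chosen with earlier results of these data known. Besides the 10 genes, those named are the 3 with the largest change per list, line and direction among genes past the test, at 1 CPM or more and without overlap, and 8 sensors and ATF4 branch genes in any case. ASNS, FGF21 and the markers PODXL, DPPA4, ERBB2, KRT8, KRT18, PECAM1, PDGFRB, CDH5, PTPRC, CD3E and CD68 are named outside this rule.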

Additional observations from a re-analysis of the deposited data

Results flagged for a closer look

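The response to BAY-850 differed between SK-OV-3 and PA-1, by the interaction term of edgeR's quasi-likelihood test over 12 libraries, for 26 of the genes named above. These are out of the 10 ER genes and 30 others named by rule, and 14.5% of all genes passed. Most of the 30 were named for a change within a line in the same libraries, so this count is a description. Values are the log2 response of SK-OV-3 minus that of PA-1. Among the 10 ER genes they were 0.67 for XBP1, 0.63 for HERPUD1, 0.57 for DNAJB9, -0.40 for DNAJC3, -0.38 for CALR and -0.35 for PDIA4. Of the sensors, EIF2AK3 differed by 0.82. In the ATF4 branch the difference was 2.58 for CHAC1, 2.05 for GDF15, 1.61 for TRIB3, 1.56 for DDIT3, 0.86 for STC2, 0.62 for ATF4, 0.54 for DDIT4, 0.29 for PPP1R15A and -0.55 for ATF5. The fitted difference of INHBE, 3.95, is not ranked with these, since it rests on 4 to 8 counts in SK-OV-3 with DMSO. For folding genes it was 0.49 for DNAJC1, -0.62 for UGGT1, -0.41 for TXNDC5, -0.33 for ERO1A, -0.28 for CANX and -0.22 for P4HB. For the remaining ER genes it was 0.34 for SEC62, -0.35 for VCP and -0.34 for SPCS3. For XBP1, HERPUD1, CALR and PDIA4 the groups of both lines were without overlap and the line means moved in opposite directions. In these genes the PA-1 change alone did not pass the test.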

How the results depend on the processing

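Of 154 summary counts recomputed under alternatives, 137 stayed within 1.5 times the reported count, 17 did not, and no log2 fold change of a gene past the test changed direction. In PA-1 the count of ER genes went from 0 to 1 with DESeq2, with the likelihood ratio test and with library size without ribosomal RNA genes, and lay between 0 and 1 when single libraries were left out. The ATF4 branch count in PA-1, 7 as reported, was 12 with DESeq2, 3 with library size only, and 4 to 8 over left-out libraries. The other ER lists together, 4 genes in PA-1, gave 2 with library size only, 2 with the GC trend removed, and 1 to 6 over left-out libraries. In SK-OV-3, leaving out single libraries gave 3 to 7 ER genes, 23 to 27 ATF4 branch genes and 11 to 23 genes of the other lists. The interaction gave 4 to 7 and the lines under DMSO 8 to 10 ER genes. The call of P4HB for the interaction was kept in 7 of 23 alternatives and that of GDF15 in PA-1 in 7 of 18. The cause of these shifts was not tested. Over all genes in PA-1, 1085 were called as reported, 1737 with DESeq2, 602 with the GC trend removed and 466 with library size only.

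Same-numbered libraries did not deviate together (Pearson r across genes between -0.0277 and 0.0042), so the numbers were not taken as pairs. With the replicate block, 0 ER genes were called in PA-1, 6 in SK-OV-3, 5 for the interaction and 9 between the lines, with 4 ATF4 branch genes in PA-1 and 26 in SK-OV-3. Among the 10 genes, the calls of PDIA4 in SK-OV-3 (adjusted p = 0.0618) and of DNAJC3 for the interaction (0.062) were lost. With the block and the GC trend removed, the other ER lists gave 2 genes in PA-1.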
